A study of Mus musculus with 12 samples.

Results

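T-cell receptor gene segments are the separate pieces of DNA from which a T cell assembles its antigen receptor. They were taken as every gene symbol of the deposited tables that names a variable (V), diversity (D), joining (J) or constant (C) segment of the alpha, beta, gamma or delta locus. This rule gave 267 segments among 52535 symbols, of which 93 had at least 1 count in the 6 libraries and 174 had none. At least 10 counts in all were reached by 37 segments, and 56 had 1 to 9.

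The cells were T-ALL lines named 240, 242 and 352, each from the lymphoma of a different mouse. All carried the genotype Akt2;Dlx5 double transgenic, with both transgenes driven by the Lck promoter, which is active in thymocytes, and with Akt2 in a myristoylated form according to the study's methods. Each line was sequenced as a control and after PKF118-310, a small molecule that keeps β-catenin from binding Tcf proteins, so each group held 3 libraries and each line 1 library per group. All cells were kept in IMDM medium with serum, and no source used here gives the strain or age of the mice.

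In a developing T cell, the Rag1 and Rag2 proteins cut next to a V, a D and a J segment, and the ends are joined into a single exon. The DNA between joined segments is usually lost from that chromosome, so a cell and its offspring carry the same joint. The beta locus has D and J clusters in front of each of its constant genes: Trbj1 segments precede Trbc1 and Trbj2 segments precede Trbc2. J segments downstream of the joined J stay in the gene and lie in the intron before the constant exons. Trbv31 lies behind Trbc2 in the opposite orientation and joins by inversion. The delta locus lies within the alpha locus and is lost from a chromosome on which a V alpha joins a J alpha. A population grown from a single transformed cell would carry the same joints in every cell, which is why segment use is read as a sign of clonality.

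The V segments that led the counts in the 3 lines are shown first, since the rest of the account turns on them. These are the coding parts of the second exon in GENCODE vM21 on mm10 (GRCm38), at chr6:40891591-40891885 (plus strand) for Trbv1, chr6:41178749-41179048 (plus strand, last 300 bases) for Trbv19 and chr6:41557691-41557981 (minus strand) for Trbv31. Capitals mark the codon of the conserved cysteine at which the receptor's most variable loop begins, the loop that spans the joint.
Trbv1: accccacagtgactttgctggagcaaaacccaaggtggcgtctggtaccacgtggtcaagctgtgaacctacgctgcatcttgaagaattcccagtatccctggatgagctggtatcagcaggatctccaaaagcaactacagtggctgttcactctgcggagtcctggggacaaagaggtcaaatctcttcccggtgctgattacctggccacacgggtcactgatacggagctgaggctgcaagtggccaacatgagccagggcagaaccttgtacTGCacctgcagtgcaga
Trbv19: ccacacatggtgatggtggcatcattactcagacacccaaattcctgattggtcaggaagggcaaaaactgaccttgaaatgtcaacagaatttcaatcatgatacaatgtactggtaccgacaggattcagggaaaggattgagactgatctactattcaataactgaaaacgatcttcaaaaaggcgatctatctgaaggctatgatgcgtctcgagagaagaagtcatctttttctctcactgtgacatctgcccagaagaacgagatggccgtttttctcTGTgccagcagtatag
Trbv31: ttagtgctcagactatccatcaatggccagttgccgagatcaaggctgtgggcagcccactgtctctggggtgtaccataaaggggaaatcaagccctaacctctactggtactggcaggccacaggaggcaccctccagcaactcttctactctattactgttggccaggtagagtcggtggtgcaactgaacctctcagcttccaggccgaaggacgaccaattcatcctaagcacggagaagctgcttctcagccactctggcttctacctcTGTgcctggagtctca

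The J segments with counts are shown next, in locus order, with the D segment Trbd2 before the Trbj2 cluster. Capitals mark matches to TTTGGNNNNGG or TTCGGNNNNGG, which spell the J segments' phenylalanine-glycine motif. The motif was searched on both strands and was found in 11 of 14 Trbj, 43 of 60 Traj, 2 of 2 Trdj and 0 of 4 Trgj segments, always on the coding strand. A J segment ends at the splice site towards the constant exons. Trbj1-5, the first printed, lies at chr6:41535084-41535133 and Trbj2-7, the last, at chr6:41543810-41543856. Trbj2-6 is annotated as a J pseudogene, and the letters of neither motif occur in it, in Trbj1-6 or in Trbj1-7.
Trbj1-5: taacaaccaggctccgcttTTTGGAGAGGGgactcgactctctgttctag
Trbj1-6: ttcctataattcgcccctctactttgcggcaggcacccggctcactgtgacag
Trbj1-7: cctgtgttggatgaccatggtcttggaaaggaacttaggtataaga
Trbd2: gggactgggggggc
Trbj2-1: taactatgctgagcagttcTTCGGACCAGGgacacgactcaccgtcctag
Trbj2-2: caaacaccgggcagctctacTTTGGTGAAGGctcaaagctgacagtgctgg
Trbj2-3: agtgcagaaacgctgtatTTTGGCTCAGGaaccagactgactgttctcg
Trbj2-4: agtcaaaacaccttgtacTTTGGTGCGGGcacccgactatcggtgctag
Trbj2-5: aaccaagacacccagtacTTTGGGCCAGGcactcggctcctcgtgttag
Trbj2-6: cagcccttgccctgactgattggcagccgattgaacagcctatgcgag
Trbj2-7: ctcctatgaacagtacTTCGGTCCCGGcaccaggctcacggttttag

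The constant genes Trbc1 (chr6:41538218-41539881) and Trbc2 (chr6:41546730-41548352) are near copies. Their coding sequences, 518 bases each, were 95.6% identical and differed at 23 positions, of which 1 lay in the first exon of 375 bases. The last 158 coding bases hold the other 22 differences, shown in capitals. Of all 50-base words in the annotated transcripts, 59.5% of those of Trbc1 and 56% of those of Trbc2 occur in no other gene, so reads from their shared part may have been assigned to neither.
Trbc1: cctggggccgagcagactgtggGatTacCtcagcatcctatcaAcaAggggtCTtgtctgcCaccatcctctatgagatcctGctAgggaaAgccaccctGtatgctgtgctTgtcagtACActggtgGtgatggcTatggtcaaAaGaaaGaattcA
Trbc2: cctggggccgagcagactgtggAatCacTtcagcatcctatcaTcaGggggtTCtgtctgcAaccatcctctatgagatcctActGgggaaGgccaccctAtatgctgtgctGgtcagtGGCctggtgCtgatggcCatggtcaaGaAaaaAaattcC

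Total counts ran from 604984 in the treated library of line 242 to 13766638 in the treated library of line 352. A count of 0 allows up to 3 counts, which is 4.96 CPM (counts scaled to a common library total) at the lower depth and 0.218 CPM at the higher. Thymocyte markers were present throughout: the 9 listed genes summed to between 2367 and 5148 CPM, with Cd4, Cd8a, Cd8b1, Cd3e, Lck, Thy1 and Rag1 above 42 CPM in every library. Cd2 and Cd5 were low, at 0 to 5.46 CPM and 0 to 1.58 CPM. The 7 B cell markers summed to between 10.7 and 151 CPM, mostly Ighm except in the treated library of line 242, and Igkc had no count. Immunoglobulin segments, 386 in the tables, had 2 and 27 counts in control and treated cells of line 240, 1 and 108 in line 242, and 0 and 16 in line 352.

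T-cell receptor segments together had 985 and 1024 CPM in control and treated cells of line 240, 1062 and 612 CPM in line 242, and 564 and 509 CPM in line 352. Beta segments made up 97.8% and 97.5% of these counts in line 240, 96.9% and 86.8% in line 242, and 97.8% and 97.6% in line 352. The treated library of line 242 was the lowest in its beta share, with 370 receptor counts in all. Fewer cells that express a receptor and less receptor RNA per cell cannot be told apart in such libraries. The 2 lanes of each library were summed, and intervals below cover counting error only.

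Each of lines 242 and 352 was dominated by a single V beta segment, a different one in each. The Trbv counts of line 240 were spread over many segments. In line 352, Trbv1 had 2370 of 2566 Trbv counts in control cells, which is 92.4% (95% Wilson interval 91.3 to 93.3). After PKF118-310 it had 2234 of 2397, or 93.2% (92.1 to 94.1). Trbv1 was hardly seen elsewhere, with 10 and 7 counts in line 240 and none in line 242, where 0 of 1494 control counts allow a share of up to 0.201%.

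In line 242 the leading segment was Trbv19, with 1377 of 1494 Trbv counts in control cells, or 92.2% (90.7 to 93.4). The treated cells had 127 of 142, or 89.4% (83.3 to 93.5). Next in this line were Trbv13-2, with 70 and 6 counts, and Trbv12-2, with 42 and 8. Trbv19 was also counted in the other lines, at 54 and 71 counts in line 240 and 56 and 25 in line 352.

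In line 240 no V beta segment reached 29% of the counts. Trbv31 led with 87 of 386 counts in control cells, or 22.5% (18.7 to 27), and 104 of 365 after treatment, or 28.5% (24.1 to 33.3). Trbv19 had 14.0% and 19.5% and came next after treatment. In control cells Trbv5 came next, with 58 and 46 counts in the control and treated library, or 15% and 12.6%. Trbv5 is uncertain, since it lies within another annotated gene and 22.6% of its 50-base words are its own. Line 240 had counts on 21 and 19 of the 35 Trbv segments.

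**Figure D1:**
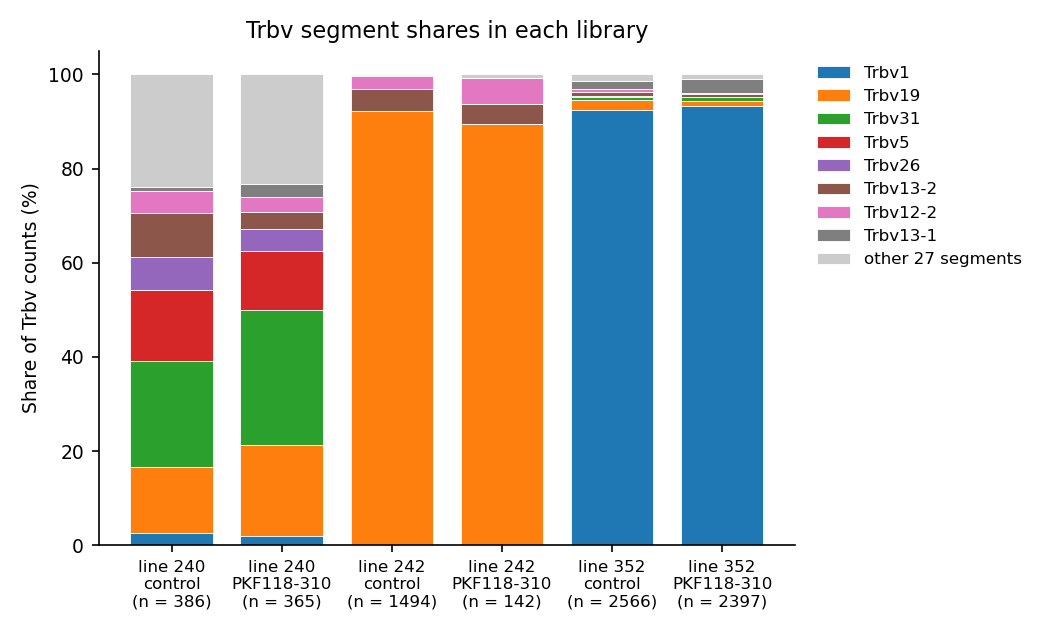
Share of Trbv counts (y axis, %) by segment in each of the 6 libraries (x axis, with the total Trbv counts under each bar); each colour is a segment, and grey stands for the other 27. Trbv1 fills over 92% of both bars of line 352, Trbv19 fills 92.2% and 89.4% of the bars of line 242, and the bars of line 240 are divided among many segments.

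The inverse Simpson index gives the number of equally used segments that would be as concentrated as the measured ones. For Trbv it was 8.65 and 6.81 in control and treated cells of line 240, 1.17 and 1.24 in line 242, and 1.17 and 1.15 in line 352. Line 240 thus lay above the other lines in each group. Read as the labels have it, with 1 library per line and group, the index has no replicate within a line.

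In locus order, counts in line 242 ended at Trbv19 apart from 1 count on Trbv31. The 11 Trbv segments between Trbv19 and Trbv31 had no count in either library of this line. They had 66 and 50 counts in line 240 and 14 and 10 in line 352. The 22 segments upstream of Trbv19 had 116 and 15 counts in line 242, on Trbv12-2, Trbv13-1, Trbv13-2, Trbv13-3 and Trbv14. In line 352, where the leading Trbv1 is the first segment of the locus, the 33 segments between it and Trbv31 had 180 and 139 counts.

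**Figure D2:**
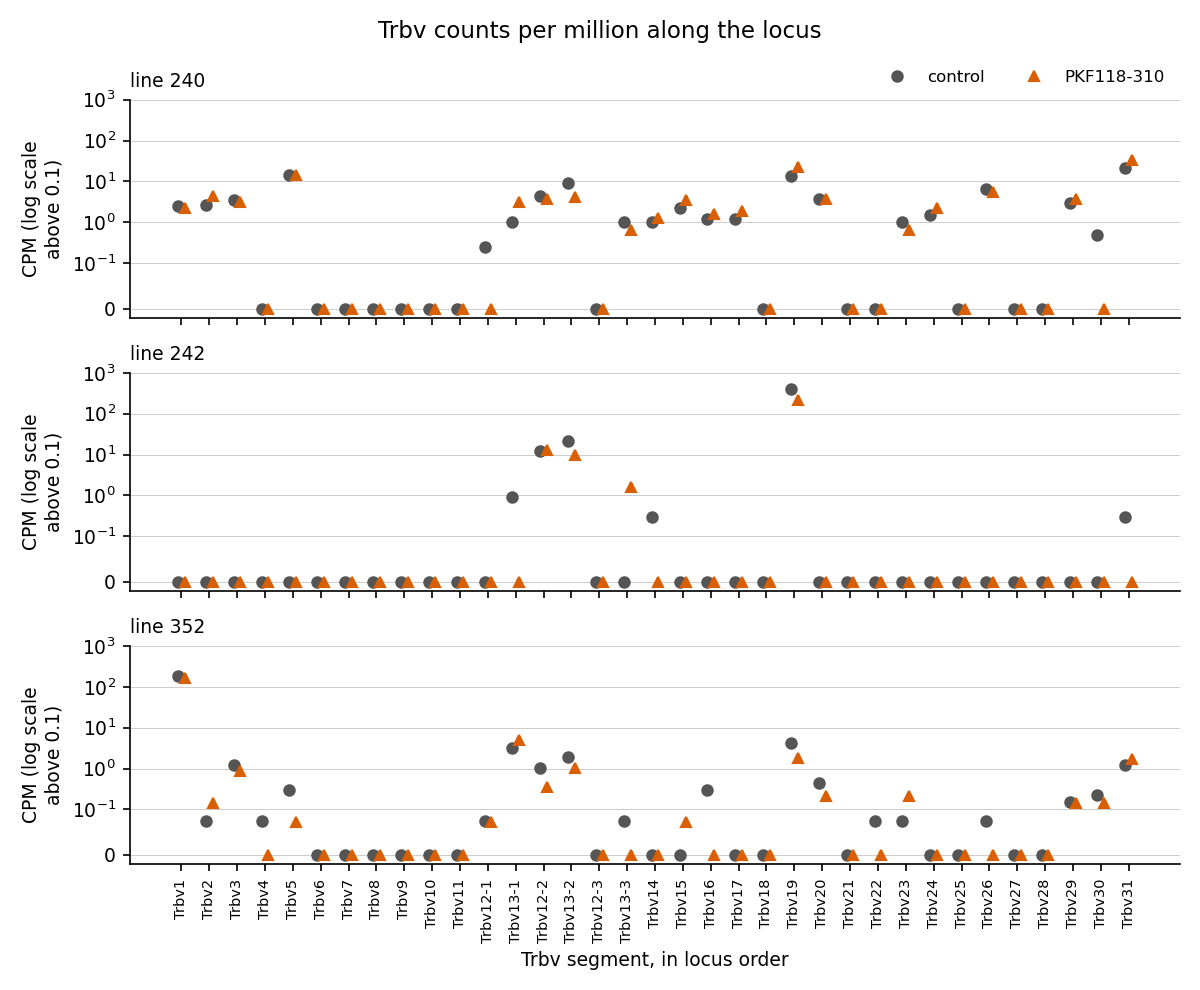
CPM (y axis, linear below 0.1 and log above) of the 35 Trbv segments in locus order (x axis), with a panel per line, circles for control and triangles for PKF118-310. Line 242 has no point above 0 between Trbv19 and Trbv31. In each line the same segment is highest for circles and triangles, and Trbv19 of line 242 is lower after treatment.

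J segments gave fewer counts and a different picture in each line. In line 352 all of the 410 control and 375 treated Trbj counts fell on the Trbj2 cluster. Trbj2-1 had 4 and 6 counts, whereas Trbj2-2 had 52 and 70, Trbj2-3 had 75 and 61, and Trbj2-4 had 59 and 56. The remaining members followed at like levels, with 73 and 55 for Trbj2-5, 68 and 51 for Trbj2-6, and 79 and 76 for Trbj2-7. No member of the cluster led: the highest share was 19.3% (15.7 to 23.4) in control and 20.3% (16.5 to 24.6) in treated cells, both for Trbj2-7. A step from Trbj2-1 to Trbj2-2 was thus present in both libraries. Trbd2, the diversity segment of this cluster, had 17 counts in each. In control and treated cells it had 1 and 1 counts in line 240 and 4 and 0 in line 242. Trbd1 had 1 count, in treated cells of line 240.

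In line 240 counts began further downstream in the cluster. Trbj2-6 had 27 of 53 control and 23 of 44 treated counts, or 50.9% (37.9 to 63.9) and 52.3% (37.9 to 66.3). Trbj2-7 had 18 and 13 counts, and Trbj2-5 had 0 and 1. In the first cluster Trbj1-7 had 8 and 6 counts and Trbj1-6 had 0 and 1, so the counts lay at the downstream end of each cluster.

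Line 242 had 29 Trbj counts in control cells and 3 after treatment. The control counts fell on Trbj1-5, Trbj1-6 and Trbj1-7 (7, 6 and 5 counts) and on Trbj2-5, Trbj2-6 and Trbj2-7 (1, 3 and 7). The treated cells had 2 counts on Trbj1-7 and 1 on Trbj2-7, too few to compare the 2 libraries. A J count need not name the J segment that was joined: reads that span several segments may be counted for none of them, depending on the counting mode, which is not stated, and J segments left in the intron can be read in unspliced RNA. No V-to-J joint can be read from counts per gene.

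**Figure D3:**
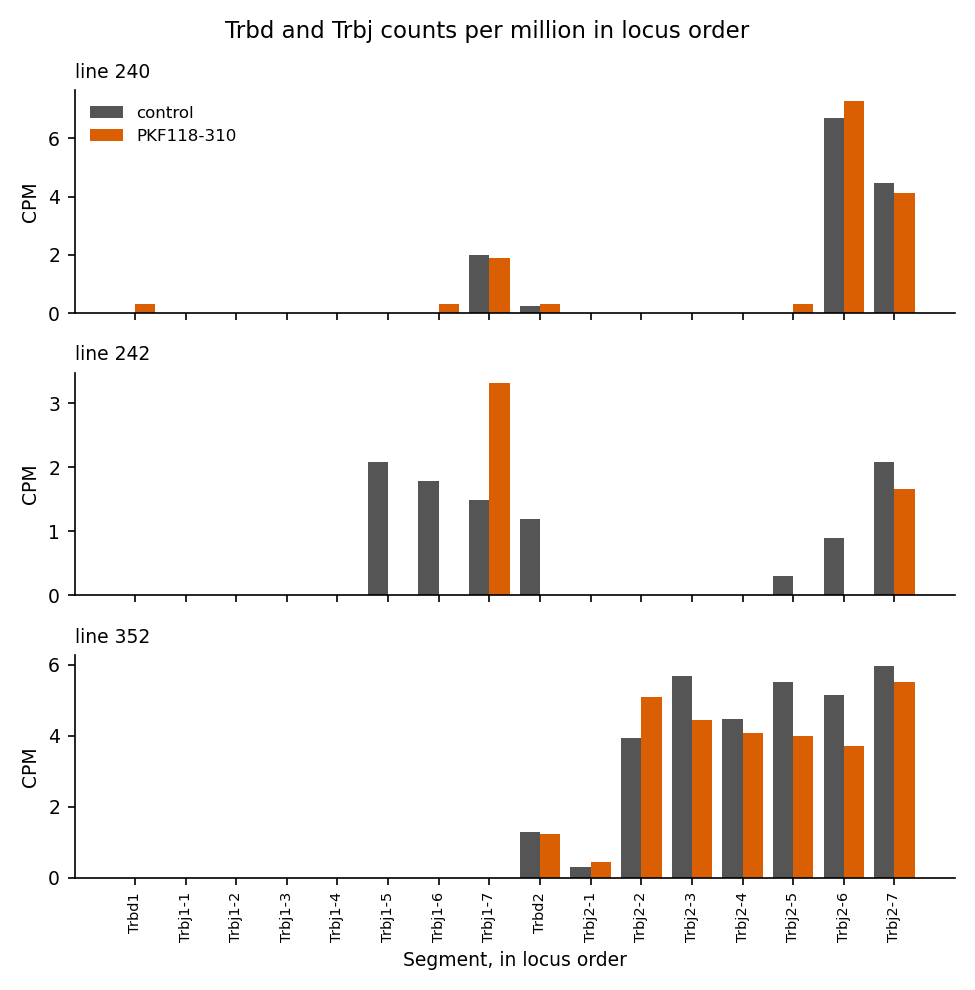
CPM (y axis, linear, with its own range in each panel) of the Trbd and Trbj segments in locus order (x axis) for each line, grey for control and orange for PKF118-310. Line 352 has bars from Trbd2 to Trbj2-7 and none before. Lines 240 and 242 have their Trbj bars at the downstream end of each cluster. Their Trbd bars rest on 1 to 4 counts, the most for Trbd2 in control cells of line 242.

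Trbc2 was the leading constant segment in every library. It had 2687 and 2181 counts in control and treated cells of line 240, 1670 and 150 in line 242, and 4291 and 4058 in line 352. Trbc1 had 758 and 564 counts in line 240, 256 and 26 in line 242, and 4 and 0 in line 352. The share of Trbc1 in both genes' counts was therefore 22.0% (20.7 to 23.4) and 20.6% (19.1 to 22.1) in line 240 and 13.3% (11.9 to 14.9) and 14.8% (10.3 to 20.8) in line 242. In line 352 it was 0.0931% (0.0362 to 0.239) in control cells, and 0 of 4058 counts after treatment allow a share of up to 0.0739%. Line 352, which had no Trbj1 count, was thus also the line nearly without Trbc1.

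V counts relative to constant counts differed by line. For every 100 Trbc counts there were 11.2 and 13.3 Trbv counts in line 240, 77.6 and 80.7 in line 242, and 59.7 and 59.1 in line 352. Line 240, the line without a dominant V, stood lowest in both groups. Whether its spread V counts come from joined segments was not tested. Trbj counts per 100 Trbc counts were 1.54 and 1.60 in line 240, 1.51 and 1.71 in line 242, and 9.55 and 9.24 in line 352.

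The alpha constant segment Trac (chr14:54220521-54224206) had 67 and 59 counts in line 240, 85 and 18 in line 242, and 52 and 79 in line 352. Per kilobase of exon, Trac had 17.8 and 20.0 CPM in line 240, 27.1 and 31.8 in line 242, and 4.21 and 6.14 in line 352. On the same scale Trbc1 and Trbc2 together had between 13.1 times the Trac level, in treated cells of line 242, and 112 times, in control cells of line 352. Alpha constant RNA was thus below beta constant RNA per length in all 6 libraries.

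Trdc, the delta constant segment (chr14:54142851-54148868), was counted in line 352 alone, with 40 counts in control and 42 in treated cells, or 2.94 and 2.91 TMM-scaled CPM. A count of 0 allows up to 0.744 and 0.949 CPM in line 240 and 0.894 and 4.96 CPM in line 242, so such a level would not have been detectable in the treated library of line 242. The Trdv segments had 4 and 6 counts in line 352, of which 3 and 4 were on Trdv5, which overlaps Trdc on the other strand. Gamma segments were counted in line 240 alone: Tcrg-C1 had 5 and 7 counts, Tcrg-C4 had 2 and 0, and Tcrg-V4 had 0 and 2. At 1.25 and 2.21 TMM-scaled CPM in line 240, a like level of Tcrg-C1 would not have been detectable in the treated library of line 242. Tcrg-C2, Tcrg-C3 and all Trgj, Trdd and Trdj segments had no count in any library.

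**Figure D4:**
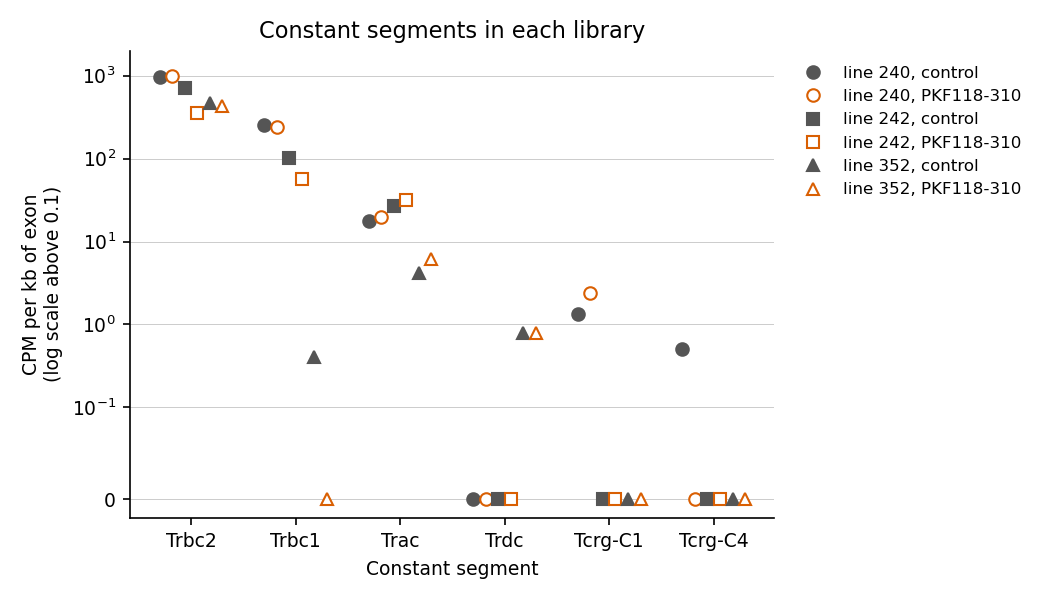
CPM per kilobase of exon (y axis, linear below 0.1 and log above) of the constant segments with a count (x axis), with circles, squares and triangles for lines 240, 242 and 352, filled for control and open for PKF118-310. Trbc2 is highest in every library, line 352 stands apart by low Trbc1 and by Trdc, and Tcrg-C1 is above 0 in line 240 alone.

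V alpha segments were sparse, with 10 to 66 counts per library, and 75 of the 128 Trav segments have fewer than 50% of their 50-base words to themselves. In line 352, Trav17 had 15 of 66 and 8 of 34 counts and Trav18 had 10 and 7, and both are wholly distinct in their 50-base words. Trav13n-3 led in control cells of line 240 with 9 of 12 counts against 3 of 10 after treatment, and 17.4% of its 50-base words are its own. In the treated cells of line 240, Trav1 was ahead of it with 4 counts.

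Control and treated cells of line 242 differed in V alpha. Trav3-4 had 15 of 18 counts in control cells and 0 of 30 after treatment. Trav6d-5 had 0 and 15 counts and Trav1 had 0 and 12. These are 15 or fewer counts from 1 library each. Of their 50-base words, 79.95% of those of Trav3-4, 56.1% of Trav6d-5 and 100% of Trav1 are their own. Trav1 also had 0 control counts in lines 240 and 352, against 4 and 2 after treatment. Trav6d-5 had 1 count in treated cells of line 240. Trav counts exceeded Trac counts in control cells of line 352, at 66 and 52, and in treated cells of line 242, at 30 and 18. In the same treated library immunoglobulin segments had 108 counts against 1 in the control, Pax5 had 43 against 0, and the 4 stroma and epithelium markers summed to 46.3 CPM against 0.300 CPM, and the part of these in the V alpha result was not tested. Traj segments had 1 to 6 counts per library, so no J alpha could be named for any line.

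The profiles of control and treated cells were compared within each line by the total variation distance, which is 0 for equal shares and 1 where no segment is shared. For Trbv, line 240 had a distance of 0.158, line 242 one of 0.0353 and line 352 one of 0.0256. Between libraries of different lines it ran from 0.732 to 0.982 over 12 pairs. The 2 lanes of the same library differed by 0.0212 to 0.136, with the largest values in line 240, at 0.136 and 0.120. Since a lane has less depth than the sum of both, control and treated cells were also compared within each lane. The distances were then 0.186 and 0.196 in line 240, above both of its lane distances, 0.0163 and 0.0533 in line 242, and 0.0387 and 0.0255 in line 352. All of these Trbv distances within a line lay below those between lines.

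**Figure D5:**
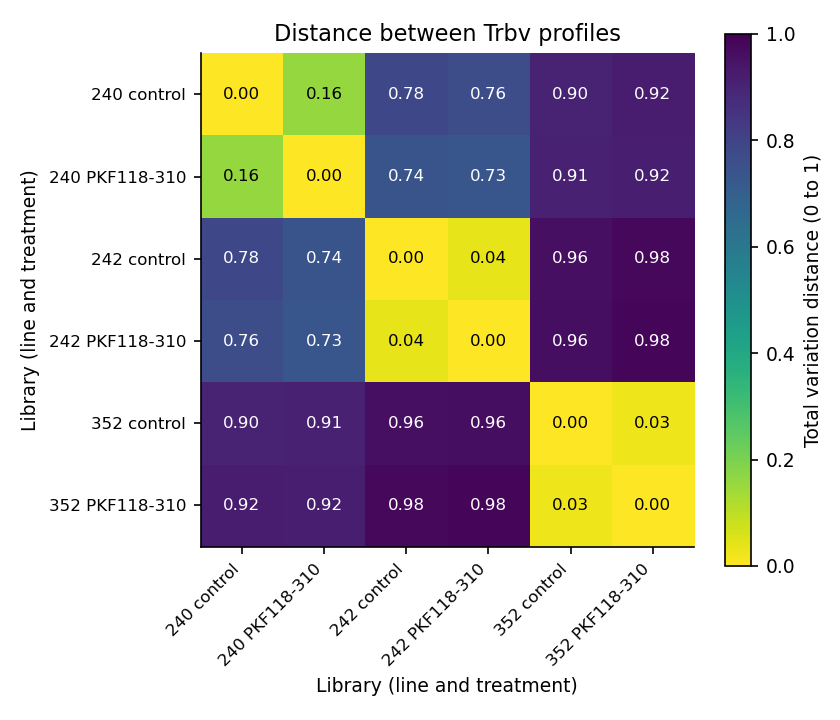
Total variation distance between the Trbv shares of each pair of libraries (both axes, named by line and treatment), from 0 (equal shares) to 1 (no shared segment). The pairs of the same line lie at 0.16 or below and all pairs of different lines at 0.73 or above.

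For Trbj the distances within a line were 0.0588 in line 240 and 0.0815 in line 352, against 0.619 to 0.661 between these lines. Line 242 had too few Trbj counts after treatment. For Trbc they were 0.0146, 0.0148 and 0.000931 in lines 240, 242 and 352, against 0.0577 to 0.220 between lines. In lane 2 alone this separation was lost, with 0.0376 within line 242 and 0.0374 between the treated libraries of lines 240 and 242. Control and treated cells of each line had the same leading Trbv and Trbc segment, and those of line 240 the same leading Trbj segment. In line 352 no Trbj segment led clearly enough to compare: the top one differed between the lanes of each library.

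The change in share of the leading V beta segment after PKF118-310 was not beyond counting error in any line. It was 0.838 percentage points for Trbv1 in line 352 (95% Newcombe interval -0.609 to 2.28), -2.73 points for Trbv19 in line 242 (-8.99 to 1.58) and 5.95 points for Trbv31 in line 240 (-0.279 to 12.2). Of 9 such intervals for the 3 top Trbv segments of each line, 3 did not include 0. They were those of Trbv19 in line 240, at 5.46 points (0.123 to 10.8), of Trbv13-1 in line 352, which rose from 43 to 68 counts, at 1.16 points (0.336 to 2.02), and of Trbv19 in line 352, at -1.14 points (-1.86 to -0.439). These intervals are not adjusted for their number and hold no variation between cultures. The share of Trbc1 differed by -1.46 points in line 240 (-3.50 to 0.602), 1.48 in line 242 (-3.28 to 7.65) and -0.0931 in line 352 (-0.239 to 0.0172).

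Levels after PKF118-310 were tested across all genes with edgeR's quasi-likelihood test, with the line as a block. Over the 3 lines, 0 of 22 tested receptor segments passed an adjusted p of 0.05 and 0 had an unadjusted p below 0.05, in a fit in which 0% of 11064 genes passed and 637 had an unadjusted p below 0.05. With DESeq2, 63 genes but 0 segments passed. In lines 240 and 352 alone, 0 of 24 tested segments passed and 0 had an unadjusted p below 0.05, whereas 10.9% of 11760 genes passed, 589 of them higher and 696 lower. The median log2 fold change of the tested segments was -0.25 over 3 lines and -0.13 over lines 240 and 352, against -0.01 over all genes in each. The other 245 segments of the 3-line fit had too few counts to be tested.

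No single segment changed past the threshold. The log2 fold change was -0.35 ± 0.25 for Trbc2 (SE over 3 lines, edgeR adjusted p = 0.84), and -0.48 ± 0.36 for Trbc1 (edgeR adjusted p = 0.84). Without line 242 they were -0.05 and -0.11. The log2 ratios of Trbc2 within lines 240, 242 and 352 were 0.03, -0.96 and -0.17. Without line 240, Trbc1 was at -1.20 (edgeR adjusted p = 0.9999). Trac had 0.32 ± 0.27 (edgeR adjusted p = 0.853) and ratios of 0.14, 0.28 and 0.49 in lines 240, 242 and 352.

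The leading V segments did not pass either. Trbv1 was at -0.17 ± 0.23 (edgeR adjusted p = 0.92) and Trbv31 at 0.49 ± 0.43 (edgeR adjusted p = 0.858). Trbv19 was at -0.48 ± 0.40 (edgeR adjusted p = 0.851), with ratios of 0.71 in line 240, -0.92 in line 242 and -1.12 in line 352. The smallest unadjusted p among the segments was that of Trbv13-2, at 0.0546 for a log2 fold change of -1.02 ± 0.41 (edgeR adjusted p = 0.827), with ratios below 0 in 3 of 3 lines. Trdc was at -0.01 ± 1.19 (edgeR adjusted p = 0.9998), a value carried by line 352 alone.

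Between the 3 lines, in the same model, 7 of 22 tested segments passed an adjusted p of 0.05, where 7.15% of all 11064 genes did. A segment that was tested because 1 line expressed it highly had to differ, so the count is a description. The 7 were Trbv1 (edgeR adjusted p = 0.00692), Trbc1 (0.00802), Trbv19 (0.0107), Trbv31 (0.0145), Trac (0.0304), Trbv5 (0.0434) and Trbv13-2 (0.0463). Without line 242, with its shallow treated library, 20 of 24 passed, where 44.7% of all genes did. Without line 240 it was 6 of 17 beside 7.29% of all genes, and without line 352 it was 3 of 13 beside 2.05%.

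Genes that act with the receptor were measured in all lines. Levels of single genes from here to the gamma-delta genes are TMM-scaled CPM. Of 5 receptor partners, none passed over 3 lines and 1 passed in lines 240 and 352, beside 10.9% of all genes. This was Cd3d, a signalling chain of the receptor complex, which fell by 0.66 on the log2 scale (SE 0.14, edgeR adjusted p = 0.00931). Its TMM-scaled level was 302 and 233 CPM in control and treated cells of line 240, 152 and 98.3 CPM in line 242, and 204 and 106 CPM in line 352. It was lower after treatment in every line, but control and treated ranges overlapped. Over 3 lines, Cd247, the zeta chain, was at -0.30 ± 0.14 and Cd3g at -0.27 ± 0.17 (edgeR adjusted p = 0.827 and 0.832). Ptcra, which pairs with the beta chain before an alpha chain is made, had 95.5 and 131 CPM in line 240, 17.5 and 0 CPM in line 242, and 160 and 95.6 CPM in line 352 (edgeR adjusted p = 0.90 over 3 lines).

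Of 15 tested genes of V(D)J recombination, 0 passed over 3 lines, and 1 rose and 1 fell in lines 240 and 352, a share near the 10.9% of all genes called there. Dntt, the terminal transferase that adds bases at the joints, fell by 1.27 (SE 0.30, edgeR adjusted p = 0.0179), from 591 to 461 CPM in line 240 and from 545 to 120 CPM in line 352. In line 242 it had 578 and 238 CPM. Atm, a kinase that answers DNA breaks, rose by 0.53 (SE 0.11, edgeR adjusted p = 0.00823) and was named after its values were seen. It had 101 and 146 CPM in line 240 and 76.5 and 108 CPM in line 352, but 84.4 and 54.6 CPM in line 242, where it was lower after treatment. Rag1, a subunit of the enzyme that cuts at the segments, had 1108 and 1086 CPM in line 240, 1460 and 235 CPM in line 242, and 335 and 171 CPM in line 352 (log2 fold change -1.17 ± 0.53, edgeR adjusted p = 0.827). Hmgb2, which helps that enzyme bend DNA, was at -0.65 ± 0.25, and Xrcc6, a Ku subunit that binds broken ends, at -0.63 ± 0.28 (edgeR adjusted p = 0.827 for both).

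Of 12 transcription regulators known at the receptor loci, 0 passed over 3 lines and 2 fell in lines 240 and 352, in the fit that called 10.9% of all genes. Ets1, which binds the receptor enhancers, fell by 0.63 (SE 0.13, edgeR adjusted p = 0.00947), from 639 to 473 CPM in line 240 and from 535 to 298 CPM in line 352. Ikzf1 fell by 0.41 (SE 0.12, edgeR adjusted p = 0.042). Over 3 lines, Tcf7, a Tcf protein that binds β-catenin, was at -0.81 ± 0.31 and Bcl11b, a T-lineage regulator, at -0.71 ± 0.28 (edgeR adjusted p = 0.827 for both). The median of this list was -0.47 over 3 lines and -0.30 in lines 240 and 352, against -0.01 over all genes.

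Of 9 genes of the gamma-delta lineage, 2 had counts enough for the 3-line test and 1 for that of lines 240 and 352, and 0 passed. Id3 had 13.5 and 8.20 CPM in line 240, 25.7 and 25.5 CPM in line 242, and 56.8 and 102 CPM in line 352 (log2 fold change 0.16 ± 0.35, edgeR adjusted p = 0.96). Sox13 had at most 6.03 CPM and was at -0.53 ± 1.27 (edgeR adjusted p = 0.971). Without TMM scaling, the 9 genes summed to 14.1 and 10.4 CPM in line 240, 29.8 and 77.7 CPM in line 242, and 59.6 and 109 CPM in line 352. In the treated library of line 242, Etv5, Maf, Cd163l1, Il23r and Zbtb16, named after their values were seen, had 5.46 to 18.2 CPM. These levels rest on 10, 7, 6, 4 and 3 counts and were above those in the other 5 libraries. Of the rest of the list, Blk and Tcrg-V6 had no count in any library. Id3 and Sox13 were not higher in treated than in control cells of line 242.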

How the data were processed

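Poly(A) RNA of 6 libraries was sequenced in 2 lanes each. Raw counts per gene symbol, not normalized, were deposited by the authors in 12 files. HISAT2, HTSeq, edgeR and mm10 are named in the submitters' processing notes, and TopHat in the study's methods. No source used here gives versions, the annotation, the counting mode or how reads with several matches were treated.

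The members and gene lists were chosen with earlier results of these data known. Lanes were summed, since the labels call them the same library. The study's own account of its heatmaps names separate cultures in place of lanes, and if so a line would hold more than 1 culture per group and lane distances would include culture differences. Shares were computed within a locus and segment type, with 95% Wilson or Newcombe intervals. Distances and inverse Simpson indices used libraries with at least 30 counts. Levels were tested in R 4.3.3 with edgeR 4.0.16 (filterByExpr on the design, which needs a level in 2 libraries, TMM scaling, quasi-likelihood F test, Benjamini-Hochberg adjustment over all genes), with the line as a block. Within-line ratios used a prior count of 2. The numbers pair the samples because control and treated cells share a line, and their deviations from the group means correlated at 0.694, 0.419 and 0.82 across genes in lines 240, 242 and 352. The block takes up the level differences between lines. With 1 library per line and group, p-values therefore rest on how much the change after treatment varied from line to line. The fits were tested on simulated counts with 200 changed genes. Alternatives included DESeq2 1.42.0 and limma 3.58.1.

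Named were all constant segments, the 3 leading segments of each type and line with at least 10 counts, any segment past an adjusted p of 0.05 after treatment, and 4 genes per list by smallest p. Positions, lengths and sequences come from GENCODE vM21, in which all 267 symbols matched. Counts are of PCR-amplified reads without molecular identifiers.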

Additional observations from a re-analysis of the deposited data

How the results depend on the processing

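No receptor segment passed after PKF118-310 under any of the alternatives run, over 3 lines or over lines 240 and 352, including DESeq2, other scalings and filters, single lanes and, added after seeing the data, limma voom with sample weights and a filter by treatment group. With the replicate block left out, 0 segments passed in either comparison, and the genes called in lines 240 and 352 went from 1285 to 0. Leaving out each line in turn also gave 0 segments. Over all genes of the 3-line fit, 0 were called, against 63 with DESeq2, 312 with no filter and 905 with limma voom. Over lines 240 and 352, DESeq2 called 265.

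Segments called between lines, 7 as reported, numbered 17 with no filter, 3 with at least 10 counts in every library of a group and 3 with the filter by treatment group, which tested 93, 5 and 9 segments. Of all genes, 10.5%, 3.76% and 5.32% were then called. Leaving out a line gave 3 to 20 segments, beside 2.05% to 44.7% of all genes. Trdc changed sign, at 0.013 with library totals and 0.217 without the block. In lane 2 alone the leading Trbj segment of line 352 was Trbj2-3 (21.2%) in control and Trbj2-2 (20.3%) in treated cells, the Trbc2 share of control cells was 100%, and the distances within lines were 0.116 for Trbj in line 352 and 0.0376 for Trbc in line 242. The causes were not tested. Within-line Trbv distances varied over the alternatives, with line 240 at 0.154 to 0.196, line 242 at 0.0163 to 0.0533 and line 352 at 0.0242 to 0.0387. The leading Trbv segments were the same with copy families summed, an alternative run for these alone, and the signs of Trbc1, Trbc2 and Trac held under each alternative run for them. Depth limits line 242 most, where 142 Trbv and 3 Trbj counts remained after treatment, and lone counts of Trav, Trgc and Trdv segments.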

Other observations

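Of the 267 receptor segments, 44 are annotated as pseudogenes, and 9 of these had a count. Only Trbj2-6 and Trbv24 reached 10 counts among them, Trbj2-6 with 27, 23, 3, 0, 68 and 51 counts in control and treated cells of lines 240, 242 and 352, and Trbv24 with 6 and 7 counts, in line 240 alone. These 2 were singled out after their values were seen.

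Ighm, the constant gene of the immunoglobulin mu heavy chain, was counted in all libraries, with 606 and 256 counts in line 240, 171 and 18 in line 242, and 402 and 128 in line 352. Its CPM without TMM scaling was lower after PKF118-310 in 3 of 3 lines, at 150 and 81.0, 51.0 and 29.8, and 30.4 and 9.30. In lines 240 and 352 it fell by 1.27 on the log2 scale (SE 0.17, edgeR adjusted p = 0.00121), and over 3 lines it was at -1.17 ± 0.25 (edgeR adjusted p = 0.815). Of the 7 B cell markers, 2 were tested in lines 240 and 352, where 10.9% of all genes passed, and 1 rose and 1 fell. The other tested marker, Pax5, rose by 4.27 (SE 1.21, edgeR adjusted p = 0.0412). It had 1 and 7 counts in line 240 and 0 and 16 in line 352. Both genes lie outside the rule by which genes were named. The summed counts of immunoglobulin segments, not tested, were higher after treatment in 3 of 3 lines, with 0 to 2 in control libraries and 16 to 108 in treated ones, on 10 to 25 segments. Igkc, the kappa light chain constant gene, had 0 counts over all libraries.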
